A study of Rattus norvegicus with 15 samples.

Results

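Muscle calcium handling was followed through 9 genes: Ryr1, Trdn, Cacna1s, Casq1, Casq2, Atp2a1, Atp2a2, Sln and Pvalb. A gene entered through a probe set annotated with its symbol alone, and 7 of the 9 had such a probe set, 1 each, among 18166 genes so named. Atp2a1 and Cacna1s were not analysed here. Cartilage was taken from right knee joints of Sprague-Dawley rats, with 3 arrays at each of 5 stages: T0 (newborn), T1 (youth), T2 (adult), T3 (early-stage elderly) and T4 (latter-stage elderly). All rats were untreated as far as the labels tell and of this strain, whose age in days and sex the labels leave out, as they do any hybridisation batch. The design asks how transcripts change over successive stages of life. Values are log2 signals after RMA (a background correction, normalization and probe summary for Affymetrix arrays) over 36685 probe sets, so a difference of 1 is a doubling.

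Muscle contracts when calcium leaves the sarcoplasmic reticulum, the internal calcium store of the fibre, and relaxes when calcium is pumped back. Release passes through the ryanodine receptor, which is opened by the voltage sensor of the surface membrane and held to the store's calcium-binding proteins by triadin. SERCA pumps refill the store, and a small membrane peptide, sarcolipin, holds them back. Fast and slow fibres use different members of these families, and the fast fibres of rodents also hold the soluble buffer parvalbumin. Articular cartilage has no muscle fibres of its own, and muscle lies beside it at the knee.

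The tissue label was checked against cartilage genes. Col2a1, the main cartilage collagen, averaged between 11.91 ± 0.47 and 12.50 ± 0.04 in T0 to T2, then 9.70 ± 0.81 in T3 and 8.0 ± 1.47 in T4 (SD, n = 3). Acan, the core protein of the main cartilage proteoglycan, ran from 11.68 ± 0.16 at T0 to 6.61 ± 1.00 at T4. The chondrocyte regulator Sox9 had stage means between 5.12 and 5.58. The array medians ran from 4.94 to 5.28, so these Sox9 signals may hold no measured RNA and cannot serve as a check. Some arrays stood apart. The SD over probe sets lay between 2.00 and 2.05 on the arrays of T0 to T2, between 1.83 and 1.97 at T3 and between 1.48 and 1.71 at T4. T4 replicate 1 was the narrowest and correlated with the T0 arrays at 0.52 on average. The labels disagree on T1 replicate 3: the title and stage say youth, the source name says adult. It was kept in T1, whose other arrays it resembled at a mean r of 0.98, against 0.96 for T2 arrays. It was the lowest T1 array for 7 of the 7 genes measured.

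Over the 5 stages, 7 of 7 genes passed limma's moderated F test (adjusted p under 0.05), as did 60.1% of all probe sets. Adjusted p ran from 2.89e-08 for Casq2 to 0.000484 for Atp2a2. The genes followed different courses. Ryr1, Trdn and Casq1 stepped down from T0 to T1 and again from T1 to T2. Casq2 and Sln made most of their fall by T1, with means of 5.87 and 5.52 there, against 4.86 and 5.01 at T2. Pvalb was high at T1 alone. Atp2a2 stood high through T3 and was low at T4.

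**Figure D1:**
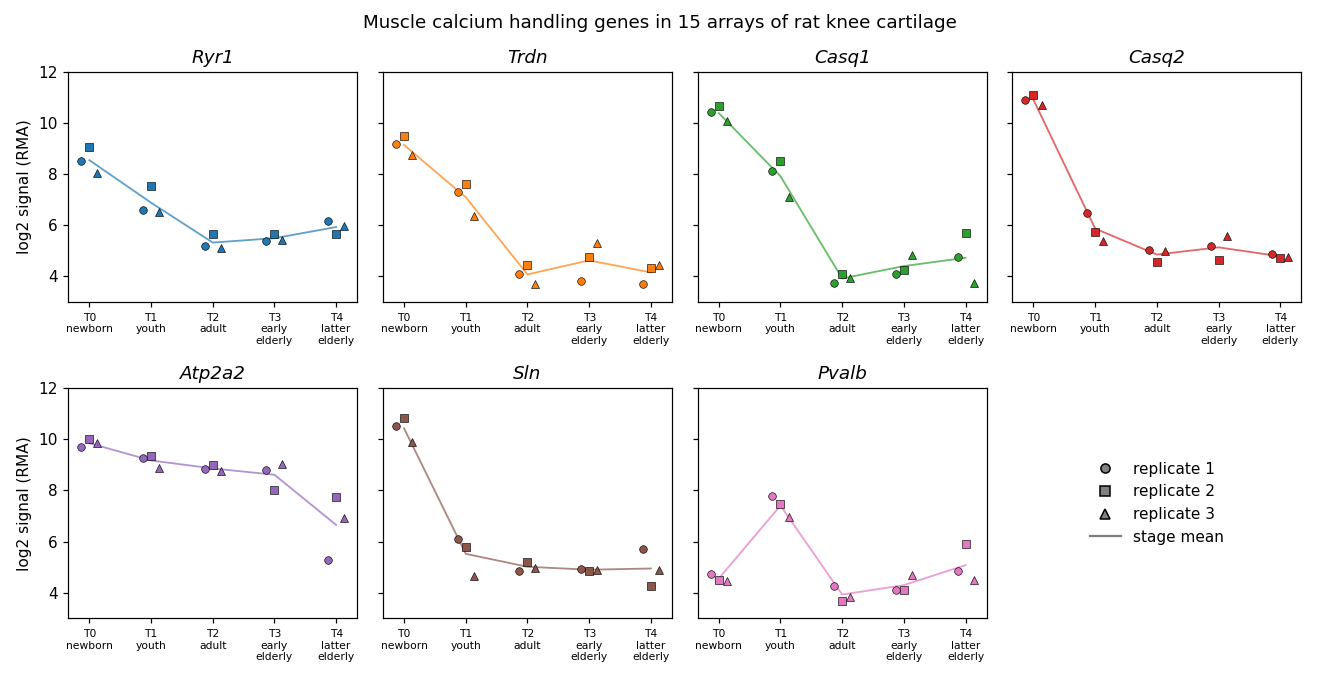
Log2 signal (y axis) of each measured calcium handling gene in the 15 arrays, by stage (x axis, T0 to T4); symbols mark replicates 1 to 3 and the line joins stage means. Casq2 and Sln dropped to stage means of 5.87 and 5.52 at T1, Pvalb peaked there at 7.41, and Atp2a2 was lowest at T4 with 6.65.

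The DNA before a start of 3 genes is shown because these genes took 3 of the courses above. Casq1 fell in steps, Casq2 mostly by T1, and Pvalb went up and down. Each run is the 250 bases before a start of the gene in RefSeq on GRCr8, 5′ to 3′ on the gene's strand. Capitals mark E-boxes (CANNTG, the motif bound by MyoD and related factors) and the 1 MEF2 motif. The Casq1 run is chr13:87212711-87212960 (minus strand), the Casq2 run chr2:192214306-192214555 (plus strand) and the Pvalb run chr7:111666290-111666539 (minus strand), which lies inside the annotated Pvalb gene.
Casq1: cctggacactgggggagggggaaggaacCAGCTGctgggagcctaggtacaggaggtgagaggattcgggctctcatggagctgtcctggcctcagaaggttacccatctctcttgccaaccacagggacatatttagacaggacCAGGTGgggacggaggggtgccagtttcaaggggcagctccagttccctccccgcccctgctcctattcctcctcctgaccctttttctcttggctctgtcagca
Casq2: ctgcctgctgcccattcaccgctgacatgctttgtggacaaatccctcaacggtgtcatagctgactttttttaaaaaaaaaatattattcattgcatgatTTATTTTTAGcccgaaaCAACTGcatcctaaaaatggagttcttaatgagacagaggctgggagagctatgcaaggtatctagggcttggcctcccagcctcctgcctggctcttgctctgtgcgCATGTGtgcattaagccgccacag
Pvalb: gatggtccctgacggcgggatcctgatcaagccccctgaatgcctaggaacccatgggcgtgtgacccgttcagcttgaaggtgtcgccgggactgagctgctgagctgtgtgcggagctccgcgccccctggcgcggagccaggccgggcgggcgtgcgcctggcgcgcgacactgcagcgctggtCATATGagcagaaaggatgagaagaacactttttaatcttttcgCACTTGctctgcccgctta
Promoters of 8 of the 9 genes were in the RefSeq table, which left Sln, and both strands were searched. An E-box stood in 7 of these 8 windows, against 65.5% of 33469 windows of the same length. Its form CAGCTG, a subset of the E-boxes, stood in 3 (Casq1, Atp2a1 and Cacna1s), against 12%. The MEF2 motif was found before Casq2 alone (2.96% of all windows), CATTCC before Cacna1s alone (12.1%), and the CArG motif before none of the 8 (1.5%). The MEF2 match of Casq2 began at position -149 from the start.

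From newborn to youth, genes of calcium release and storage were lower and parvalbumin was higher. Of 7 genes 5 fell and 1 rose (limma adjusted p under 0.05), against 3.54% and 4.01% of all probe sets (7.56% in either direction). The median change was -2.04, against -0.03 over all probe sets. The arrays of T1 and T0 did not overlap for 7 of 7 genes, which held for 32.3% of all probe sets. In whole-tissue RNA, fewer muscle cells and less of these RNAs per cell cannot be told apart. Without T1 replicate 3, 5 still fell and 1 rose, and with that array placed among the adults Casq2 and Sln fell, Pvalb rose, and the other 3 calls ended.

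Ryr1 (chromosome 1, 93420078 to 93551305 on GRCr8) encodes the calcium release channel of skeletal muscle. It measured 6.61, 7.53 and 6.51 in the T1 arrays, against 8.53, 9.07 and 8.04 in the T0 arrays. All T1 arrays lay below all T0 arrays. The fall was 3.17-fold (log2 change -1.66, SE 0.30, limma adjusted p = 0.00245).

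Trdn (chromosome 1, 25774765 to 26230069) encodes triadin, which ties the release channel to calsequestrin. It gave 7.30, 7.61 and 6.37 at T1, against 9.16, 9.49 and 8.77 at T0. No T1 array reached the lowest T0 array. The change was -2.04 (SE 0.39, limma adjusted p = 0.00362), a 4.12-fold fall.

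Casq1 and Casq2 encode the calsequestrins, the calcium-binding proteins inside the store. Casq1 (chromosome 13, 87203021 to 87212710) is the form of skeletal muscle. Its signals were 8.13, 8.52 and 7.10 at T1, against 10.43, 10.65 and 10.08 at T0, a 5.54-fold fall (-2.47, SE 0.43, limma adjusted p = 0.00198). Casq2 (chromosome 2, 192214556 to 192270821) is the cardiac form, also made in slow and developing skeletal fibres. It measured 6.49, 5.75 and 5.37 at T1, against 10.92, 11.10 and 10.70 at T0. That log2 change was -5.04 (SE 0.29, limma adjusted p = 1.43e-07), and every newborn array was above every youth array.

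Sln (chromosome 8, 63117577 to 63144290), which encodes sarcolipin, also fell at this step. It stood at 6.10, 5.80 and 4.66 in T1 arrays, against 10.53, 10.84 and 9.90 in T0 arrays. T1 replicate 3 lay below the adult arrays, which ran from 4.86 to 5.21. The log2 change was -4.90 (SE 0.39, limma adjusted p = 2.71e-06), close to the -5.04 of Casq2. Over the 15 arrays Sln and Casq2 had a Pearson's r of 0.98 and a Spearman rank correlation of 0.65.

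Atp2a2 (chromosome 12, 39733519 to 39782942) encodes SERCA2, the pump of slow and cardiac muscle, with a form used by nearly all cells. It had 9.27, 9.36 and 8.89 at T1, against 9.69, 9.99 and 9.86 at T0. The arrays were apart, but the change of -0.67 (SE 0.45, 95% interval -1.64 to 0.29) did not pass the test (limma adjusted p = 0.592). With only the 6 arrays compared it passed (limma adjusted p = 0.0372), as it did with array weights (limma adjusted p = 0.0159).

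Pvalb (chromosome 7, 111653820 to 111668469) encodes parvalbumin, the buffer that takes up calcium in fast fibres. It went the other way, with 7.79, 7.47 and 6.95 at T1, against 4.74, 4.48 and 4.44 at T0. It was higher in youth (log2 change 2.85, SE 0.33, limma adjusted p = 7.46e-05). The newborn signals lay below the array medians of 4.98 to 5.01. No detection calls were used here, so a signal at or below the array median may hold no measured RNA, and no fold is given against it.

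**Figure D2:**
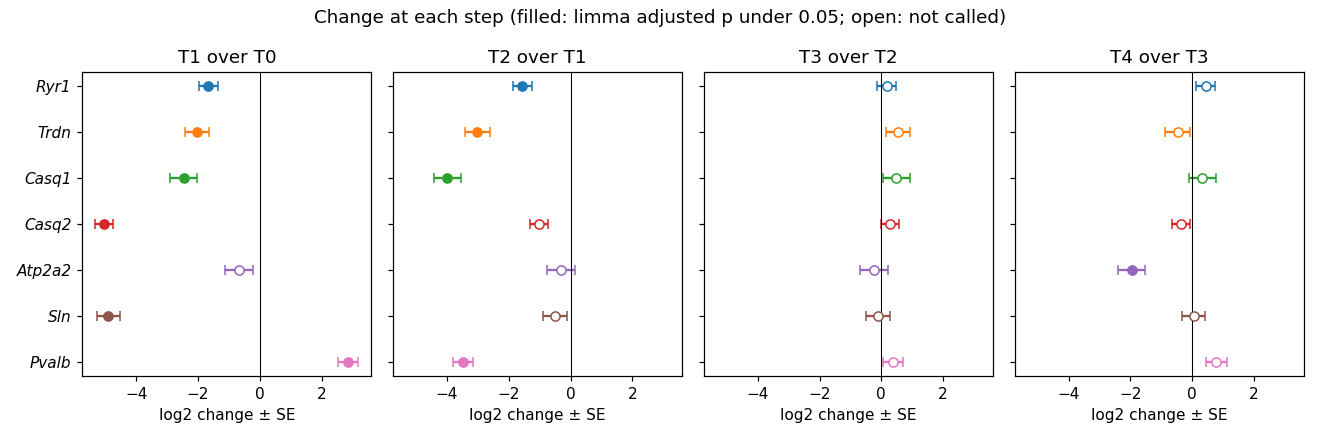
Change in log2 signal (x axis) of each gene (rows) at the 4 successive steps, as the later stage minus the earlier with limma's SE as bars; filled points passed at an adjusted p under 0.05. At T1 over T0 Casq2 (-5.04) and Sln (-4.90) lie far left and Pvalb (2.85) right; at T2 over T1 Casq1 (-4.0), Pvalb (-3.48) and Trdn (-3.02) lie left; at T4 over T3 Atp2a2 alone is filled.

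Whether genes changed unequally was tested on the log2 difference between each gene and Casq1 within an array, added as rows to the whole table. Casq2 minus Casq1 was chosen among the planned pairs, and the other 5 were added after seeing the data. The difference Casq2 minus Casq1 was -1.64, -2.77 and -1.74 in T1 arrays, against 0.49, 0.45 and 0.61 in T0 arrays. Casq2 fell more than Casq1 (change in the difference -2.57, SE 0.43, limma adjusted p = 0.00133). The groups did not overlap.

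Sln also fell more than Casq1 from newborn to youth (-2.43, SE 0.50, limma adjusted p = 0.00639, or 0.218 with T1 replicate 3 placed with adult), and Pvalb differed from it (5.32, SE 0.29, limma adjusted p = 1.06e-07), a size that rests on newborn Pvalb signals below the array medians. Ryr1 (0.81, SE 0.44, limma adjusted p = 0.433) and Trdn (0.43, SE 0.41, limma adjusted p = 0.796) were not shown to differ from Casq1. Atp2a2 changed less (1.80, SE 0.49, limma adjusted p = 0.0367), a call that ended in 11 of 23 alternatives: without any 1 of the T0, T1 or T2 arrays, after repeated quantile normalization, and with T1 replicate 3 placed with adult (adjusted p between 0.0504 and 0.509).

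From youth to adult, Casq1, Pvalb, Trdn and Ryr1 fell, so that 4 of 7 genes passed downward and 0 upward (1 more, Casq2, at an unadjusted p under 0.05), against 0.403% and 0.488% of all probe sets (0.891% in either direction). The median change of the 7 was -1.56, against 0.02 over all probe sets. Arrays of T2 and T1 did not overlap for 5 of 7 genes, as for 22.4% of all probe sets. Without T1 replicate 3, 4 again fell. With that array placed among the adults, 0 of 7 passed, 6 at an unadjusted p under 0.05, and over all probe sets 9 passed in place of 327.

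Casq1 measured 3.76, 4.08 and 3.92 in adult arrays, against 8.13, 8.52 and 7.10 in youth arrays. The fall was large against the spread (log2 change -4.0, SE 0.43, limma adjusted p = 0.000519). Pvalb stood at 4.26, 3.68 and 3.84 in the adult, against 7.79, 7.47 and 6.95 in youth (log2 change -3.48, SE 0.33, limma adjusted p = 0.000225). Both genes thus ended below the adult array medians of 4.97 to 5.07, where the signal may hold no measured RNA, and no fold is given.

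Trdn had 4.08, 4.44 and 3.71 at T2, against 7.30, 7.61 and 6.37 at T1 (-3.02, SE 0.39, limma adjusted p = 0.00171). Ryr1 had 5.20, 5.67 and 5.11 at T2, against 6.61, 7.53 and 6.51 at T1. Its change of -1.56 (SE 0.30, limma adjusted p = 0.0257) lost the call without T1 replicate 1 or 2, T2 replicate 1 or 3, after repeated quantile normalization, with only the 6 arrays compared, and with T1 replicate 3 placed with adult (adjusted p between 0.0605 and 0.642).

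Casq2, Sln and Atp2a2 did not pass from youth to adult. Casq2 was at 5.02, 4.56 and 4.98 in adult arrays, against 6.49, 5.75 and 5.37 in youth arrays (-1.01, SE 0.29, limma adjusted p = 0.156). These arrays did not overlap, and with array weights the change passed (-0.90, limma adjusted p = 0.0294). Sln changed by -0.51 (SE 0.39, limma adjusted p = 0.939) and Atp2a2 by -0.31 (SE 0.45, limma adjusted p = 1.00). For both, adult and youth arrays overlapped.

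At this step the differences from Casq1 compare signals of which several were near or below the array medians in the adult (Casq1 at 3.92, Casq2 at 4.86 and Sln at 5.01 on average). They therefore show that the Casq1 signal dropped further from youth, not an order of RNA levels in the adult. In youth arrays Casq2 (5.37 to 6.49) and Sln (4.66 to 6.10) already lay closer to the array medians than Casq1 (7.10 to 8.52). Ryr1 (6.51 to 7.53) also lay below Casq1 on each youth array, and was at 5.11 to 5.67 in the adult. How far a lower limit of each signal enters these shifts was not tested. Whether the RNA of Casq2, Sln or Ryr1 fell less than that of Casq1 cannot be told at this step. Casq2 minus Casq1 was 1.26, 0.48 and 1.06 in adult arrays, against -1.64, -2.77 and -1.74 in youth arrays. The change was 2.99 (SE 0.43, limma adjusted p = 0.0036), and with T1 replicate 3 placed with adult it was 2.47 and did not pass (limma adjusted p = 0.712). Sln minus Casq1 (3.49, SE 0.50, limma adjusted p = 0.00378) and Atp2a2 minus Casq1 (3.68, SE 0.49, limma adjusted p = 0.00199) shifted likewise, and each also lost its call when T1 replicate 3 was placed with adult. Ryr1 minus Casq1 shifted by 2.44 (SE 0.44, limma adjusted p = 0.0168), and this call ended in 6 alternatives (adjusted p up to 0.71). Pvalb minus Casq1 (0.52, SE 0.29, limma adjusted p = 0.748) and Trdn minus Casq1 (0.98, SE 0.41, limma adjusted p = 0.466, but 0.0496 without the T4 arrays) did not pass.

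**Figure D3:**
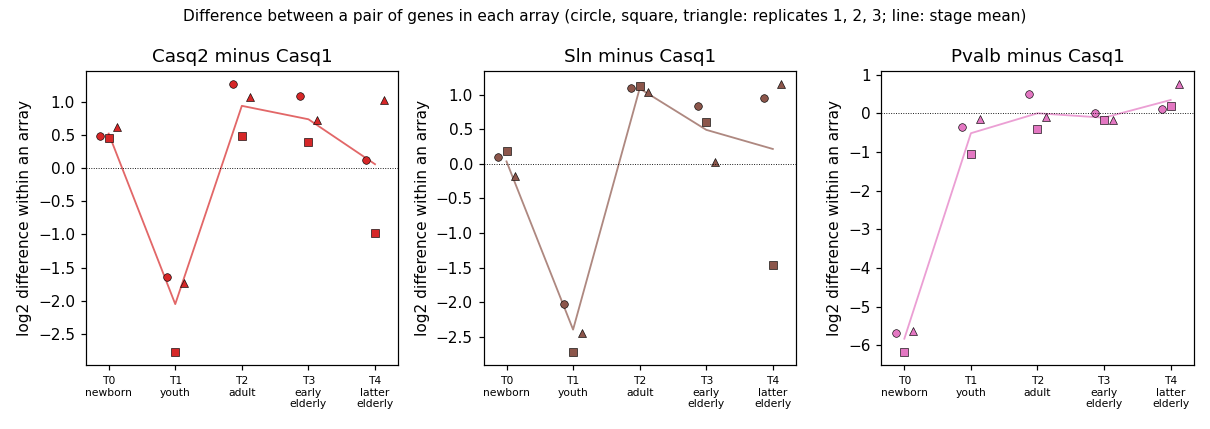
Log2 difference within each array (y axis) of Casq2, Sln and Pvalb minus Casq1, by stage (x axis); symbols mark replicates 1 to 3, the line joins stage means and each panel has its own scale. Casq2 minus Casq1 averaged -2.05 at T1 between 0.52 at T0 and 0.94 at T2, and Pvalb minus Casq1 averaged -5.83 at T0 and -0.51 at T1.

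Over both steps together, adult against newborn, 5 of 7 genes fell and 0 rose, against 6.19% and 6.51% of all probe sets (12.7% in either direction). Arrays of T2 and T0 did not overlap for 7 of 7 genes, as for 36.3% of all probe sets. The median of the 7 was -5.06, against -0.01 over all probe sets. The log2 changes were -6.47 for Casq1 (SE 0.43), -6.05 for Casq2 (SE 0.29), -5.41 for Sln (SE 0.39), -5.06 for Trdn (SE 0.39) and -3.22 for Ryr1 (SE 0.30). The adult signals of Casq1, Casq2, Sln and Trdn were near or below the array medians, so these differences depend on each probe set's lowest signal and are not given as folds. Limma adjusted p for these 5 lay between 1.33e-08 and 4.47e-06. Pvalb did not pass (-0.63, SE 0.33, limma adjusted p = 0.32). Atp2a2 stood at 8.83, 9.0 and 8.74 at T2, against 9.69, 9.99 and 9.86 at T0 (-0.99, SE 0.45, limma adjusted p = 0.221), and passed without T4 replicate 1 (limma adjusted p = 0.0203) and without all T4 arrays (limma adjusted p = 0.0134).

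From adult to early-stage elderly, 0 of 7 genes passed, and 0 reached an unadjusted p under 0.05 in limma. Of all probe sets 0.15% passed, 0.0382% upward and 0.112% downward. Changes ran from -0.25 for Atp2a2 (SE 0.45) to 0.55 for Trdn (SE 0.39). Casq1 alone had arrays that did not overlap, as had 26.5% of all probe sets: 4.10, 4.26 and 4.85 at T3, against 3.76, 4.08 and 3.92 at T2 (0.48, SE 0.43, 95% interval -0.45 to 1.42, limma adjusted p = 0.546).

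From early to latter-stage elderly, Atp2a2 alone passed, 1 of 7 downward and 0 upward, where 25.8% of all probe sets fell and 16.5% rose, 42.2% in all. Arrays of T4 and T3 did not overlap for 2 of 7 genes, Atp2a2 and Ryr1, as for 41.6% of all probe sets. It measured 5.29, 7.73 and 6.93 in T4 arrays, against 8.80, 8.01 and 9.02 in T3 arrays. Every T4 array lay below every T3 array, with T4 replicate 1 lowest. The change was -1.96 (SE 0.45, limma adjusted p = 0.00443), or -1.28 (SE 0.30, limma adjusted p = 0.00677) without T4 replicate 1, and it missed with only the 6 arrays compared (limma adjusted p = 0.0686). The T4 arrays also had the narrowest spread over probe sets, as given above. After repeated quantile normalization, which gives all arrays the same spread, the change was -1.60 (SE 0.58, limma adjusted p = 0.0451). Apart from this, the part of the spread in the result was not tested.

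None of the other 6 genes passed at this step. Pvalb was at 4.85, 5.90 and 4.49 in T4 arrays, against 4.11, 4.09 and 4.68 in T3 arrays (0.78, SE 0.33, limma adjusted p = 0.0709). It passed without T4 replicate 3 (1.08, limma adjusted p = 0.0239). Casq1 had 4.74, 5.71 and 3.74 at T4, against 4.10, 4.26 and 4.85 at T3. T4 replicate 2 was thus the highest array of T2 to T4 for both genes. Ryr1 was at 6.16, 5.67 and 5.97 at T4, against 5.40, 5.65 and 5.43 at T3 (0.44, SE 0.30, limma adjusted p = 0.257), with arrays that did not overlap.

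Ranked by stage mean, Casq1 ran T0, T1, T4, T3, T2 and Ryr1 the same, Trdn T0, T1, T3, T4, T2, Casq2 T0, T1, T3, T2, T4 and Sln T0, T1, T2, T4, T3. Neighbours in these orders had overlapping arrays at every place after T1, except T3 and T2 for Casq1 and T4 and T3 for Ryr1. For Casq2 and Sln, T1 itself overlapped with the next stage. Pvalb ran T1, T4, T0, T3, T2, and T1 was the one stage whose arrays were clear of the next. Atp2a2 ran from T0 down to T4 in order, with gaps after T0 and before T4.

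Other genes of the triad, the junction where surface membrane and store meet, were also lower in youth. Of 16 measured genes of a triad list 12 fell and 0 rose from T0 to T1 (median -1.08), against 3.54% and 4.01% of all probe sets. Without T1 replicate 3, 9 fell, and 8 with it placed with adult. Sarcalumenin Srl, which binds calcium in the store, stood at 6.15 at T1, against 9.40 at T0 (-3.25, SE 0.28), Bin1, which shapes the surface membrane tubules, at 7.79 against 9.84 (-2.04, SE 0.22) and the calcium channel subunit Cacnb1 at 5.58 against 7.39 (-1.81, SE 0.22). From T1 to T2, 3 of 16 fell and 0 rose (median -0.50), against 0.403% and 0.488% of all probe sets: Srl (-2.03, SE 0.28), the store's potassium channel Tmem38a (-1.46, SE 0.26) and the myosin light chain kinase Mylk2 (-0.90, SE 0.20). With T1 replicate 3 placed with adult, 0 of 16 passed limma at this step (7 at an unadjusted p under 0.05). From T3 to T4, 4 of 16 rose and 0 fell (median 0.26), beside 16.5% and 25.8% of all probe sets. Among them were the store's histidine-rich protein Hrc (1.49, SE 0.31), Cacng1 (1.29, SE 0.37) and Srl (0.89, SE 0.28). The list mean was highest on T4 replicate 1, the array with the narrowest spread (6.01, against 5.70 and 5.56 on the other T4 arrays). Whether this count holds without that array was not tested.

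Among calcium genes with wider use, more fell than rose. Of 25 measured genes 5 fell and 1 rose from T0 to T1 (median -0.14; 3 fell and 1 rose without T1 replicate 3), beside 3.54% and 4.01% of all probe sets, and 0 of 25 passed limma from T1 to T2 (6 at an unadjusted p under 0.05), the lowest adjusted p being 0.09 for Cacna2d1 (change -1.25). The channel subunit Cacna2d1 (-2.0, SE 0.31) and the sodium-calcium exchanger Slc8a1 (-1.78, SE 0.26) were lower at T1 than at T0. The pump Atp2a3, found in blood cells among others, was the one that rose, to 7.51 at T1, against 5.56 at T0 (1.95, SE 0.26). From T3 to T4, 13 of 25 fell and 1 rose, beside 25.8% and 16.5% of all probe sets, with S100a1 at -1.47 (SE 0.27) and the surface membrane pump Atp2b1 at -1.84 (SE 0.38). The list mean was lowest on T4 replicate 1 (5.58, against 6.17 and 6.10 on the other T4 arrays), and the count without that array was not tested.

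Contractile genes were set beside the calcium genes by fibre type. The fast fibre list (6 of 10 measured, Myh1, Myh2 and Myh4 not among them) had a mean log2 signal of 8.15 to 8.65 in T1 arrays, against 9.39 to 9.95 in T0 arrays. In it 4 genes fell and 1 rose, beside 3.54% and 4.01% of all probe sets. Without T1 replicate 3, 1 fell and 1 rose, and with it placed with adult 1 fell and 0 rose. The gene that rose was Mybpc2, the fast form of myosin-binding protein C, at 7.16 against 6.13 (1.03, SE 0.21), so it and Pvalb both rose at this step. Slow fibre genes (8 of 9 measured) had list means of 7.37, 7.30 and 5.28 in the T1 arrays, against 8.67, 8.67 and 8.0 in the T0 arrays. Of them 5 fell and 0 rose (4 fell without T1 replicate 3), with the slow form Mybpc1 at -3.25 (SE 0.38). T1 replicate 3 was low for this list, as it was for Sln, while its fast list mean was 8.15.

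General muscle genes fell in 17 of 19 cases at T1 over T0 (median -2.05) and in 17 of 19 at T2 over T1 (median -2.51), with the contractile actin Acta1 at -4.23 (SE 0.31) in the later step. Of all probe sets 3.54% fell at the first step and 0.403% at the later one. Without T1 replicate 3 the counts were 15 and 17. With it placed with adult they were 8 and 0, of which the 0 had 18 at an unadjusted p under 0.05 in limma. The fast list had 5 of 6 falls at T2 over T1, and 0 with that placement (6 at an unadjusted p under 0.05). The slow list had 1 of 8, 5 without T1 replicate 3, and 4 with that placement. Perinatal muscle genes fell in 9 of 9 cases at T1 over T0, and in 8 both without T1 replicate 3 and with it placed with adult. Among them were the perinatal myosin Myh8 (-7.72, SE 0.20), the developmental troponin Tnnt2 (-3.87, SE 0.24) and the acetylcholine receptor subunit Chrna1 (-3.07, SE 0.25). At T2 over T1, 0 of 9 passed limma (1 at an unadjusted p under 0.05, adjusted p of 0.363 or more). The perinatal list mean was 4.99 to 5.07 at T1, against 7.41 to 7.71 at T0, a course like that of Casq2 and Sln. In the adult these lists averaged 5.06 to 5.40 (fast), 4.87 to 5.04 (slow), 4.68 to 4.93 (general) and 4.79 to 4.84 (perinatal).

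**Figure D4:**
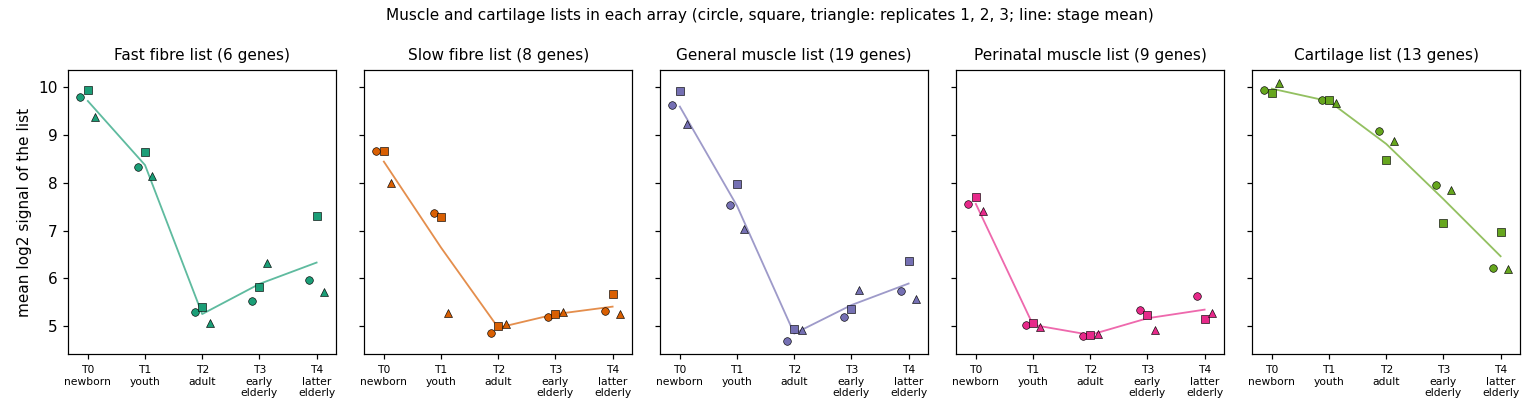
Mean log2 signal (y axis) of the genes of each list in the 15 arrays, by stage (x axis); symbols mark replicates 1 to 3 and the line joins stage means. Perinatal genes are at 4.99 to 5.07 by T1, while fast fibre genes are still at 8.15 to 8.65, and the slow list of T1 replicate 3 is at 5.28.

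Markers of other tissues were read beside these results. Since Casq2 is also the cardiac calsequestrin, 6 heart genes were examined. Heart muscle myosin Myh6 never exceeded 4.43 on any array and had stage means of 4.18 at T0 and 4.13 at T1. Nppa, Nppb, Tnni3 and Myl7 had stage means between 4.87 and 5.47 at T0 and T1. Tnni3 and Myl7 were higher late, with T4 means of 6.52 and 6.55 and highest arrays of 6.73 and 7.09. At T4 over T3, 1 of the 6 rose and 0 fell, beside 16.5% and 25.8% of all probe sets. Of the 6, Myl3 alone fell at T1 over T0 (-2.55, SE 0.73, limma adjusted p = 0.0466), and it also stands in the slow fibre list. Smooth muscle genes fell in 1 of 5 cases at T1 over T0 (median -0.21) and tendon genes in 3 of 8 (median -0.92). Erythroid genes rose in 6 of 6 cases (median 5.35) and myeloid genes in 7 of 10 (median 3.42). Osteoblast genes rose in 5 of 8 (median 1.56) and adipocyte genes in 4 of 10 (median 0.94). Cartilage genes fell in 3 of 13 cases and rose in 1 (median -0.51). Of all probe sets 3.54% fell and 4.01% rose at this step. How far a change in the tissue taken with the cartilage enters the calcium gene results was not tested.

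For each gene the 3 others with the most similar course over the 15 arrays were taken by Pearson's r, as a description of values that share arrays and stages. Casq1 was closest to Ttn (r = 0.99), Neb (r = 0.99) and Actn2 (r = 0.99), which encode the sarcomere proteins titin, nebulin and alpha-actinin. Trdn was closest to the tendon gene Tnmd (r = 0.98), Actn2 (r = 0.98) and the muscle AMP deaminase Ampd1 (r = 0.98). Ryr1 was closest to the glycogen-targeting subunit Ppp1r3a (r = 0.98), Srl (r = 0.98) and the muscle carnitine transferase Cpt1b (r = 0.97).

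Casq2 was closest to the angiotensin receptor Agtr2 (r = 0.99), the prolyl hydroxylase P4ha3 (r = 0.99) and Gas2 (r = 0.98), and Sln to Agtr2 (r = 0.99), the surface protein Adam23 (r = 0.98) and Gas2 (r = 0.98). Agtr2 had stage means of 9.21 at T0, 4.45 at T1 and 3.28 at T2. None of these is a contractile gene, but only the 3 closest genes were taken. The perinatal muscle list followed a like course, as given above. Atp2a2 was closest to the mitochondrial genes Sucla2, Vdac3 and Slc25a3 (r = 0.99 each), of which Sucla2 averaged 5.08 at T4 and 7.35 at T3. Pvalb had no near match: Ccdc3 (r = 0.86), Entrep1 (r = 0.85) and Metrnl (r = 0.84) came closest, and Ccdc3 varied only between 5.74 and 6.86 in its stage means.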

How the data were processed

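Total RNA of knee cartilage (15 samples) was hybridised to Affymetrix RaGene 2.0 ST arrays, per the labels. The authors' deposited values are log2 signals, and the submitters' processing notes name RMA as the method, without a version or build. Symbols came from GEO's platform annotation (18511 with 1 symbol, 575 with several), and the probe set with the highest mean stood for a gene.

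With limma 3.58.1 (lmFit and eBayes, under R 4.3.3) each stage received its own mean in 1 fit of the 15 arrays, pooling the spread over stages, with Benjamini-Hochberg adjustment over 36685 probe sets and a call at an adjusted p under 0.05. Differences within arrays were added as rows. No p was adjusted over a list. The number of arrays limits the precision. The labels call the arrays of a stage biological replicates. Replicate numbers do not pair arrays: of 30 same-numbered pairs 1 had deviations correlated above 0.1. Planned pairs with Atp2a1 or Cacna1s were not run.

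The genes, lists and tests were chosen with earlier results of these data known. Named genes were the measured members, the 3 with the most similar course to each, the 3 of each muscle or calcium list with the smallest p in a comparison, of which the text gives some, and Col2a1, Acan and Sox9. Heart genes were named after their values were seen. Alternatives were repeated quantile normalization, array weights, fewer arrays in the fit, a filter (above 5 in at least 3 arrays), an intensity trend, a replicate block, each replicate left out, and T1 replicate 3 placed with adult. List counts without T1 replicate 3, and with it placed with adult, were added after seeing the data. The table has no detection calls, so no probe set was called absent.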

Additional observations from a re-analysis of the deposited data

How the results depend on the processing

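The counts of calcium genes called kept within 1.5 times of the reported ones, save for 4 cases. With T1 replicate 3 placed with adult, 3 passed at T1 over T0 and 0 at T2 over T1 (limma, 6 at an unadjusted p under 0.05 in each), and Casq2 minus Casq1 at T2 over T1 was 2.47 and no longer passed (adjusted p = 0.712). At T4 over T3, 0 passed with only the 6 arrays compared (1 at an unadjusted p under 0.05), and 1 to 2 when an array was left out, with 2 without T4 replicate 3. With arrays left out, 6 passed at T1 over T0 and 3 to 4 at T2 over T1. The sign changes concerned values that did not pass in either setting. With T1 replicate 3 placed with adult they were Casq1 (-0.31), Pvalb (-0.39), Ryr1 (-0.13) and Trdn (-0.022) at T3 over T2 and Pvalb at T2 over T0 (0.13). Atp2a2 at T3 over T2 turned with quantile normalization (0.021), and its value ran from -0.45 to 0.053 with 1 T3 array left out. At T4 over T3 they were Casq1 (-0.31), Sln (-0.067) and Trdn (0.34) with array weights, Casq1 between -0.17 (without T4 replicate 2) and 0.82, and Sln between -0.33 (without T4 replicate 1) and 0.39, with 1 array left out. The cause was not tested. The replicate block left the counts at 6, 4, 0, 1 and 5 and changed no call; 4 of 15 arrays correlated best with an array of their own number. Over all probe sets, calls ran from 1777 to 6852 at T1 over T0 (2772 reported), 9 to 2381 at T2 over T1 (327), 0 to 10464 at T3 over T2 (55; 0 with the 6 arrays compared, 6886 at an unadjusted p under 0.05), 2532 to 21580 at T4 over T3 (15493), 3508 to 9230 at T2 over T0 (4659) and 9366 to 30356 in the F test (22043). Slide or scan date and a second probe set per gene could not be tried, since neither was at hand.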
